A study of Homo sapiens with 4 samples.

Results

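Nucleoporins are the proteins that build the nuclear pore complex, the channel through which mRNA leaves the nucleus and proteins enter it. Their genes were examined for peaks of an RNA-binding protein, HNRNPC, and of a poly(A)-binding protein, PABPC4. Members were the protein-coding genes whose symbol is NUP followed directly by a number, together with SEH1L, SEC13, TPR, RANBP2, POM121, NDC1, AAAS, GLE1 and AHCTF1 (the gene of ELYS). This rule took 32 of 20056 protein-coding genes. It took 42 of the 9107 HNRNPC positions, or 0.461%, and 214 of the 63507 PABPC4 positions, or 0.337%.

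The peaks came from CLIP, in which RNA is cross-linked by ultraviolet light to the proteins it contacts, recovered with an antibody against 1 of them and sequenced as short tags. All samples were of MDA-MB-231, a human breast cancer cell line, irradiated with 400 mJ/cm2 at 254 nm, and the labels name no other treatment. HNRNPC was recovered from 2 samples by irCLIP. PABPC4 was recovered from 2 samples by PAPERCLIP, which primes reverse transcription on A tails and therefore reads the 3′ ends of mRNAs. There were no control samples with another antibody among the data used here. The tags of both samples of a protein were pooled into 1 peak list, so no value below has a replicate error and no test between samples was possible. The height of a peak is the number of pooled unique tags at its summit. It was not scaled to depth and rises with the abundance of the RNA, so heights were compared within a list only.

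A nuclear pore is built of an outer ring of Y complexes on each face, an inner ring, a central channel lined by proteins with phenylalanine-glycine repeats, filaments on the cytoplasmic side, a basket on the nuclear side and a few proteins that span the membrane. mRNPs pass the basket first and are released at the cytoplasmic filaments. As background on the readouts, HNRNPC binds runs of U in pre-mRNA, many of them in Alu elements that lie antisense to the transcript, and PABPC4 binds the A tail that is added downstream of a poly(A) signal such as AAUAAA.

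PABPC4 peaks were found in 31 of the 32 genes (96.9%, 95% Wilson interval 84.3 to 99.5), beside 59.2% of all protein-coding genes. A PABPC4 peak in a 3′ UTR was found in 29 (90.6%, interval 75.8 to 96.8), beside 48.8%. HNRNPC peaks were found in 16 genes (50%, interval 33.6 to 66.4), beside 19.0%. All 16 also had a PABPC4 peak, so the share with both was the same, beside 18.6%. Genes that are not transcribed in these cells count in those backgrounds. Among genes with a PABPC4 peak, the share with an HNRNPC peak was 51.6% for the nucleoporins (16 of 31, interval 34.8 to 68.0), beside 31.4%. HNRNPC peaks in a 3′ UTR were found in 1 member, NUP43, which is 3.12% of the 32 genes (interval 0.554 to 15.7), beside 1.98%. These shares are descriptions of 1 pooled list per protein, and their intervals cover counting error only.

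The sequences below are the last 30 nt before the 3′ boundary of PABPC4 peaks in nucleoporin 3′ UTRs, in GRCh38 and written as RNA in the direction of the gene. They are shown because they carry the 3′ ends on which the results turn, and the capitals mark AAUAAA or AUUAAA.
SEC13, 309 tags, chr3:10300930-10300959, minus strand: ggaacuaAAUAAAgucauauugcuuauaau
NUP153, 272 tags, chr6:17615036-17615065, minus strand: aaaugccaucAAUAAAaaauuaugacauac
NUP188, 260 tags, chr9:129007064-129007093, plus strand: uuuauacagauAUUAAAaucuuguuuauag
SEH1L, 182 tags, chr18:12987498-12987527, plus strand: aaAAUAAAucauuccuguguauaaagcagc
NUP155, 151 tags, chr5:37291840-37291869, minus strand: aucuguaaAAUAAAaacucagcugggucca
NUP155, 80 tags, chr5:37288112-37288141, minus strand: uaauauuuuaagucuuccAUUAAAucauug
NUP62, 134 tags, chr19:49906829-49906858, minus strand: ugcuuuucuaAAUAAAuguauugugaaacc
NUP37, 78 tags, chr12:102074207-102074236, minus strand: ugucucaguugcuuuuAUUAAAUAAAaugu
NUP37, 57 tags, chr12:102073109-102073138, minus strand: guugcuguaaagAUUAAAUAAAggugaaug
NUP98, 105 tags, chr11:3675021-3675050, minus strand: uuucuuaaaaAAUAAAUAAAauguuuauag

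**Figure D1:**
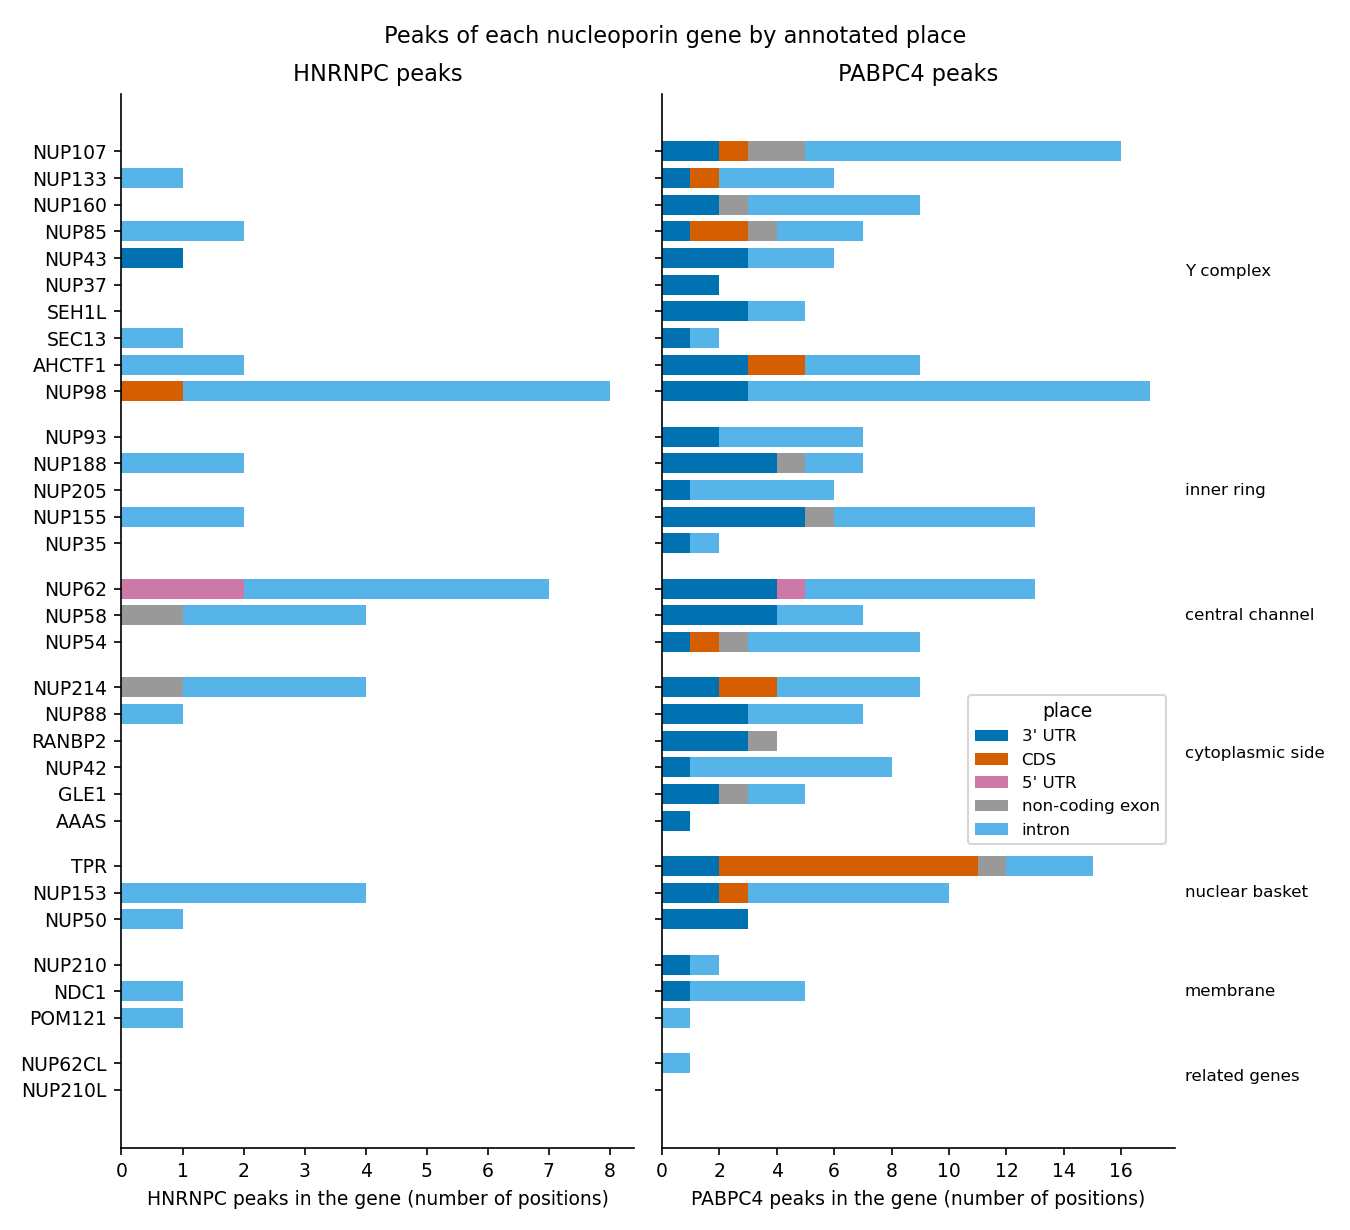
Number of peaks in each of the 32 nucleoporin genes, grouped by place in the pore, for HNRNPC (left) and PABPC4 (right). The colours give the place of each peak in the annotation. PABPC4 peaks were counted in 31 genes and HNRNPC peaks in 16, with NUP98 highest in both lists at 17 and 8 peaks.

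Most peaks of both proteins lay in introns. Of the 214 PABPC4 peaks, 120 were in introns (56.1%, interval 49.4 to 62.6), beside 60.2% of the whole list. There were 64 in 3′ UTRs (29.9%, beside 29.8%), 10 in non-coding exons and 1 in a 5′ UTR. In coding sequence (CDS) there were 19 (8.88%, interval 5.76 to 13.4, beside 5.04%), and TPR alone held 9 of them. Peaks of 1 gene are not independent, and the intervals over peaks do not allow for this. Of the 42 HNRNPC peaks, 36 were in introns (85.7%, interval 72.2 to 93.3), beside 85.4% of the whole list. The others were 2 in 5′ UTRs (4.76%, interval 1.32 to 15.8, beside 1.42%), 2 in non-coding exons, 1 in CDS and 1 in a 3′ UTR. The median height was 41 tags for PABPC4 (range 7 to 309; whole list 38) and 11 tags for HNRNPC (range 6 to 51; whole list 11).

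The Y complex, the scaffold of the outer rings, was represented by 10 genes. All had PABPC4 peaks (79 in total), 6 had HNRNPC peaks (15 in total) and 8 had a PABPC4 3′ UTR peak within 50 nt of an annotated transcript end. SEC13, which is shared with the COPII vesicle coat, had the tallest 3′ UTR peak of all members, 309 tags, 1 nt beyond the end of its MANE Select transcript, the representative transcript of a gene. Its other PABPC4 peak had 104 tags and lay 4499 nt beyond that end, in an intron of another transcript. Its HNRNPC peak, in an intron of the MANE transcript, had 8. SEH1L had 182 tags at its MANE end, 35 tags 123 nt upstream next to an A-rich stretch, and 22 tags near an annotated end, 1851 nt upstream of the tallest. A-rich means that the genome within 50 nt downstream of the peak held 6 consecutive A or 7 A among 10 letters.

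NUP98, whose precursor is cut into the channel protein NUP98 and the Y complex protein NUP96, had most peaks of both proteins. Its 17 PABPC4 peaks comprised 14 in introns, between 14 and 113 tags, and 3 in 3′ UTRs, with 105, 19 and 29 tags. The 105-tag peak lay 2 nt short of the MANE end, while the 19-tag peak lay 36815 nt upstream of it, near the end of a shorter transcript. The annotation thus placed the weaker end inside the gene and the stronger one at the full-length end. NUP37 had no peak outside its 3′ UTR, with 78 tags at the proximal end and 57 tags 1098 nt downstream at the MANE end. NUP160 had 49 tags near its distal end and 9 tags 61268 nt upstream, at the end of another transcript.

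The other members of the Y complex had 3′ UTR peaks of between 16 and 84 tags. NUP107 had 84 and 16 tags in its 3′ UTR, both next to an A-rich stretch, and 14 peaks outside it. The 84-tag peak also had AUUAAA and ended 4 nt short of an annotated end. NUP85 had 25 tags in its 3′ UTR and 128 in CDS. NUP43 had 39 tags at its MANE end beside 46 and 16 tags farther upstream, both of the latter in a stretch that matched 7SL RNA, from which Alu elements derive. For NUP133 (25 tags) and AHCTF1 (36, 32 and 70 tags), no 3′ UTR peak lay within 50 nt of an annotated end. AHCTF1 encodes ELYS, which brings pore assembly to chromatin after mitosis.

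The inner ring holds the pore together in the plane of the envelope, and all 5 of its genes had a PABPC4 peak at an annotated end. NUP188 had 260 tags, 3 nt short of its MANE end. Its other 3′ UTR peaks, with 11, 66 and 101 tags, lay upstream of the gene in the 3′ UTR of PHYHD1 and were listed under both genes. NUP155 had 5 peaks in its 3′ UTR. The tallest, 151 tags, lay at an annotated end 3728 nt upstream of the last one, which had 80 tags. A 143-tag peak lay 106 nt beyond another annotated end, with AUUAAA starting 34 nt before its boundary. Its other peaks had 80 tags, next to an A-rich stretch, and 10 tags. The proximal region of this 3′ UTR therefore held the taller peaks.

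NUP205 had 133 tags at an annotated end, with AAUAAA and an A-rich stretch. NUP93 had 109 and 30 tags in peaks whose 3′ boundaries were 53 nt apart, near neighbouring annotated ends, and they lay 5575 and 5522 nt upstream of the MANE end, where there was no peak. NUP35 had 51 tags at its MANE end. NUP155 and NUP188 were the members of this ring with HNRNPC peaks.

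The central channel genes NUP62, NUP58 and NUP54 encode the repeat proteins that fill the pore. NUP62 had 134 tags at its MANE end and 65 tags in a peak of 2 nt whose boundary lay 113 nt upstream, near another annotated end. A still taller 3′ UTR peak, 156 tags, lay 734 nt upstream of the MANE end and had no poly(A) signal. The 30 nt downstream of its boundary (chr19:49907529-49907558, minus strand), shown with the A-rich part in capitals, began with 21 A in a row.
NUP62, 156 tags, downstream: AAAAAAAAAAAAAAAAAAAAAGAAAcuccc
IL4I1 overlaps NUP62 on the same strand, and 11 of the 13 PABPC4 peaks of NUP62, with all 4 in the 3′ UTR, were listed under both genes. All 4 peaks in the 3′ UTR of NUP58 (38, 24, 15 and 58 tags) were next to an A-rich stretch, and 1 of them, with 24 tags, was near an annotated end. NUP54 had 41 tags near an annotated end.

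On the cytoplasmic side, where mRNPs are released, 5 of 6 genes had a 3′ UTR peak at an annotated end. GLE1, which activates the export helicase DDX19, had 112 tags at its MANE end and 10 tags at an end upstream. AAAS had 1 PABPC4 peak, of 76 tags, at its MANE end. NUP88 had 74, 13 and 49 tags in its 3′ UTR, the last at the MANE end and 1341 nt downstream of the 74-tag peak. NUP42 had 15 tags in its 3′ UTR beside 7 intron peaks between 10 and 38 tags. NUP214, which binds the same helicase, had only 17 and 12 tags in its 3′ UTR. RANBP2, the largest filament protein, had 7, 23 and 13 tags in its 3′ UTR, and none of these peaks was near an annotated end. Its tallest PABPC4 peak, 72 tags, lay in a non-coding exon next to an A-rich stretch, 16 nt short of an annotated end. RANBP2 shares long stretches with the RGPD genes, for which 0 peaks were listed. Whether tags were lost or divided between RANBP2 and the RGPD genes was not tested.

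In the basket, NUP153 had 272 tags 1 nt from its MANE end, and 73 tags 338 nt upstream. NUP50, an importin-binding basket protein, had 38, 45 and 114 tags in its 3′ UTR, none near an annotated end, and the tallest was next to an A-rich stretch. TPR, the main filament of the basket, had 33 and 11 tags in its 3′ UTR, 2181 and 2271 nt upstream of the annotated end. Of the membrane proteins, NDC1 had 95 tags and NUP210 had 34 tags at an annotated end, while POM121 had 1 PABPC4 peak, of 7 tags in an intron. The POM121 peak lay upstream of the start of its MANE transcript. POM121C, a near copy of POM121, had 6 PABPC4 peaks with up to 128 tags. Whether reads were divided between these genes was not tested. The related gene NUP62CL had 1 intron peak of 16 tags, and NUP210L had no peak in either list.

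**Figure D2:**
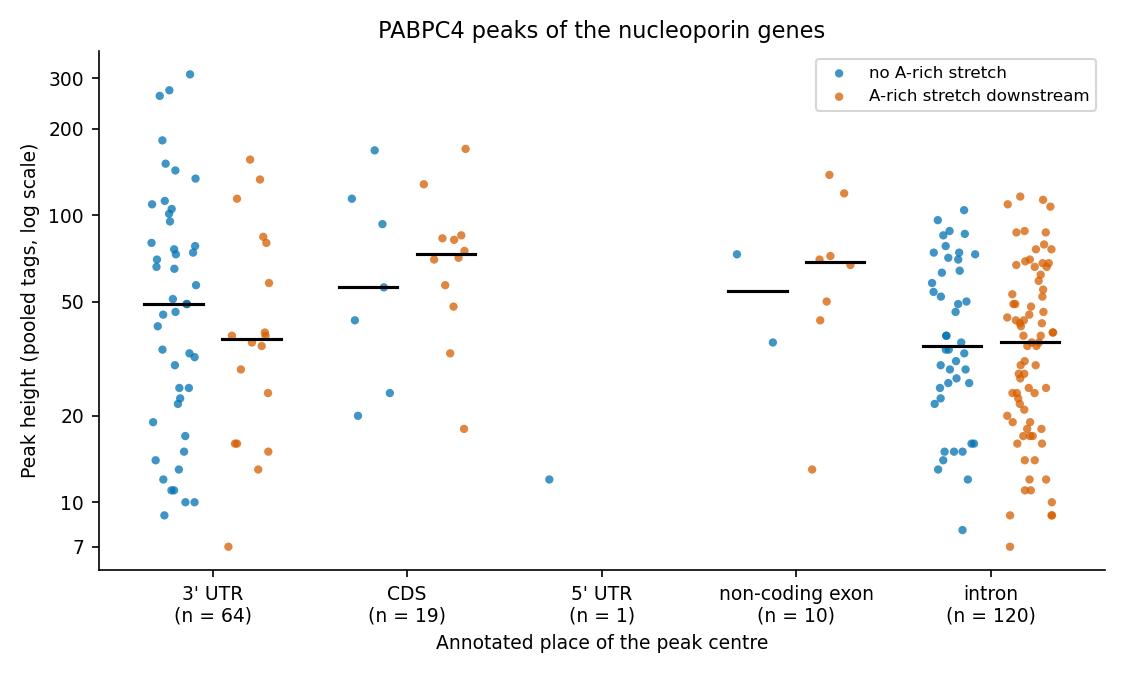
Height of each of the 214 PABPC4 peaks in pooled tags (log axis) by annotated place, split by whether an A-rich stretch lies downstream; black bars are medians and sideways scatter is for display. The 3 tallest peaks, with 309, 272 and 260 tags, were 3′ UTR peaks without an A-rich stretch, while 76 of the 120 intron peaks had one.

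Of the 64 3′ UTR peaks, 32 had a poly(A) signal starting in the 40 nt before their 3′ boundary (50%, beside 50.5% over the whole list). Such peaks are said to hold a signal, although it can start upstream of a narrow peak. The share differed with position. This split was not made over the whole list, so it is not shown to be particular to these genes. There were 34 peaks within 50 nt of an annotated end of the gene, of which 25 held a signal (73.5%) and 4 were next to an A-rich stretch (11.8%), with a median height of 61 tags. The other 30 peaks lay farther away, of which 7 held a signal (23.3%) and 14 were next to an A-rich stretch (46.7%), with a median height of 34 tags. They included the 3 peaks listed under NUP188 that lay in the 3′ UTR of PHYHD1. Their distance was taken to the ends of NUP188, and the 101-tag peak among them held AAUAAA. Near the ends the signal was AAUAAA in 18 peaks and AUUAAA in 7, and it started a median of 20 nt before the boundary. There were 8 peaks near an end and 10 farther away with neither feature. Whether the peaks next to A-rich stretches came from A tails or from priming on the transcript itself was not tested.

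**Figure D3:**
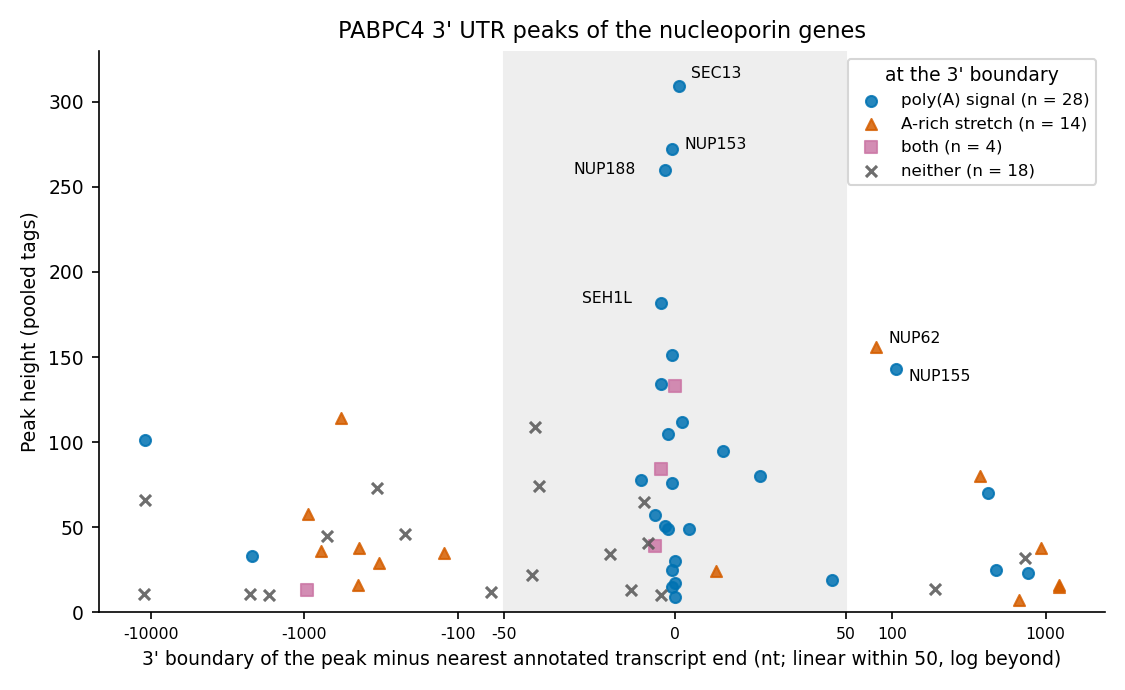
Height of the 64 PABPC4 3′ UTR peaks in pooled tags against the 3′ boundary minus the nearest annotated transcript end in nt (linear within 50 nt, shaded, and log beyond; negative is upstream). Of the 34 peaks in the shaded range 25 held a poly(A) signal, and of the 30 outside it 7 did. The same split was not made over the whole list.

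In all, 24 members had a 3′ UTR peak within 50 nt of an annotated end. This was 75% of the 32 genes (interval 57.9 to 86.7), beside 42.0% of the 19138 protein-coding genes with a model in the annotation. Of the 29 members with any PABPC4 peak in a 3′ UTR it was 82.8% (interval 65.5 to 92.4), beside 83.0%. A peak lay at the MANE end in 18 members, a count that was not made over all genes. Those without an end peak were AHCTF1, NUP133, NUP50, NUP62CL, NUP210L, POM121, RANBP2 and TPR. Farther from an annotated end, 3′ UTR peaks with AAUAAA were found in AHCTF1 (70 tags), NUP133 (25), RANBP2 (23 and 13) and TPR (33). Only the 13-tag peak among these was next to an A-rich stretch. Counting the end peaks that held at least 10% of a gene's end tags, 8 genes had more than 1 end peak: NUP155, NUP160, NUP37, NUP62, NUP88, NUP93, NUP98 and SEH1L. They were 25% of the members (interval 13.3 to 42.1), beside 8.6% of the protein-coding genes in the annotation, and 33.3% of the members with an end peak (interval 17.97 to 53.3), beside 20.5%. The proximal end peak held the larger share in NUP155 (65.4%), NUP37 (57.8%), NUP88 (60.2%) and NUP93 (78.4%). The distal end peak held the larger share in NUP160 (84.5%), NUP62 (67.3%), NUP98 (84.7%) and SEH1L (89.2%). No least distance between end peaks was set. Their boundaries were only 53 nt apart in NUP93 and 113 nt apart in NUP62, where both peaks were also listed under IL4I1. Whether these were separate ends was not tested. With 20% in place of 10%, 5 genes had more than 1 end peak. The larger share was at the proximal one in NUP155, NUP37, NUP88 and NUP93 and at the distal one in NUP62. With 25 nt in place of 50 nt there were also 5, NUP155 and NUP37 with the larger share at the proximal end and NUP160, NUP62 and NUP88 at the distal end. The 74-tag peak of NUP88 is left out by that limit, so the direction in this gene depended on it.

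The share of a gene's summed PABPC4 height that lay in 3′ UTRs ranged from 0% to 100% over the 31 genes, with a median of 39.8%. It was 100% in AAAS, NUP37 and NUP50 and under 10% in 7 genes, among them TPR (5.18%), NUP85 (5.35%) and NUP214 (7.29%). In those 3 genes the tallest peak lay in CDS, whereas it lay in a 3′ UTR in 16 genes, in an intron in 9 and in a non-coding exon in 3. NUP88 (74 tags, counted under introns) and AHCTF1 (70 tags, counted under 3′ UTRs) had equally tall peaks in both places. The NUP88 intron peak lay 2612 nt beyond its MANE end, in an intron of another transcript. These counts were not made over all genes. TPR had 9 of the 19 CDS peaks of the members, between 18 and 170 tags, and 7 of the 9 were next to an A-rich stretch. Its 170-tag peak also held AUUAAA, starting 14 nt before the boundary, and was the only 1 of the 19 with a poly(A) signal. The NUP214 CDS peak of 168 tags, in exon 7 of 36, had neither an A-rich stretch nor a poly(A) signal and ended 2 nt short of the end of an annotated short transcript. The sequences of these peaks with 50 nt downstream are shown because they were the tallest outside 3′ UTRs, beside the tallest NUP98 intron peak. Capitals mark the A-rich stretch only.
TPR, 170 tags, CDS, chr1:186350257-186350359, minus strand: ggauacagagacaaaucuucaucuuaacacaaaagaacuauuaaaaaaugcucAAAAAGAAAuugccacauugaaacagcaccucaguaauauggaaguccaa
NUP214, 168 tags, CDS, chr9:131133146-131133257, plus strand: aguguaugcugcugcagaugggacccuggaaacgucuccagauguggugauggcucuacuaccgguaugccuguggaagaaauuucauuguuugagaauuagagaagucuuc
NUP107, 138 tags, non-coding exon, chr12:68714284-68714381, plus strand: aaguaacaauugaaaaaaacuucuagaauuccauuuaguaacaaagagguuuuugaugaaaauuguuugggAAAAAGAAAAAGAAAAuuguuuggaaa
NUP98, 113 tags, intron, chr11:3782544-3782641, minus strand: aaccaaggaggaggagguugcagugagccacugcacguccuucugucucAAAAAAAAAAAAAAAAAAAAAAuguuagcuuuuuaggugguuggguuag
The next tallest were the NUP85 CDS peak of 128 tags and a NUP54 peak of 119 tags in a non-coding exon, both next to an A-rich stretch.

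PABPC4 intron peaks were found in 27 members, a count that was not made over all genes. Their median height was 36 tags, beside 35 in the whole list. Of the 120, 76 were next to an A-rich stretch (63.3%, interval 54.4 to 71.4), beside 71.2% of the intron peaks of the whole list. A match to 7SL RNA in the direction of the transcript was found in 82 (68.3%, beside 59.7%), and an antisense match in 5. Both an A-rich stretch and a sense match were found in 56, and neither an A-rich stretch nor a 7SL match in 16. A poly(A) signal was found in 5 intron peaks. In 2 of these there was no A-rich stretch, and the 30 nt before their 3′ boundary are shown with the signal in capitals.
NUP98, 46 tags, intron, chr11:3697973-3698002, minus strand: ucaauucauucaAAUAAAuauauagaaguu
NUP42, 38 tags, intron, chr7:23190617-23190646, plus strand: auuguauuAAUAAAuuaacuuuuuccaugc
Neither of these lay within 50 nt of an annotated end, with distances of 956 nt in NUP98 and 2427 nt in NUP42.

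HNRNPC peaks were unevenly spread over the members. NUP98 had 8, NUP62 had 7, and NUP153, NUP214 and NUP58 had 4 each, so 5 genes held 27 of the 42 peaks. AHCTF1, NUP155, NUP188 and NUP85 had 2 each. The other 7, with 1 each, were NDC1, NUP133, NUP43, NUP50, NUP88, POM121 and SEC13. The NUP88 peak lay 3739 nt beyond its MANE end and the POM121 peak upstream of its MANE start, in introns of other transcripts. The tallest peak of NUP62 had 51 tags, followed by NUP98 with 45, AHCTF1 and NUP155 with 28 each, NUP153 with 20 and NUP88 with 19. By place in the pore, HNRNPC peaks were found in 6 of 10 Y complex genes, 2 of 5 inner ring genes, 2 of 3 central channel genes, 2 of 6 cytoplasmic genes, 2 of 3 basket genes and 2 of 3 membrane genes.

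**Figure D4:**
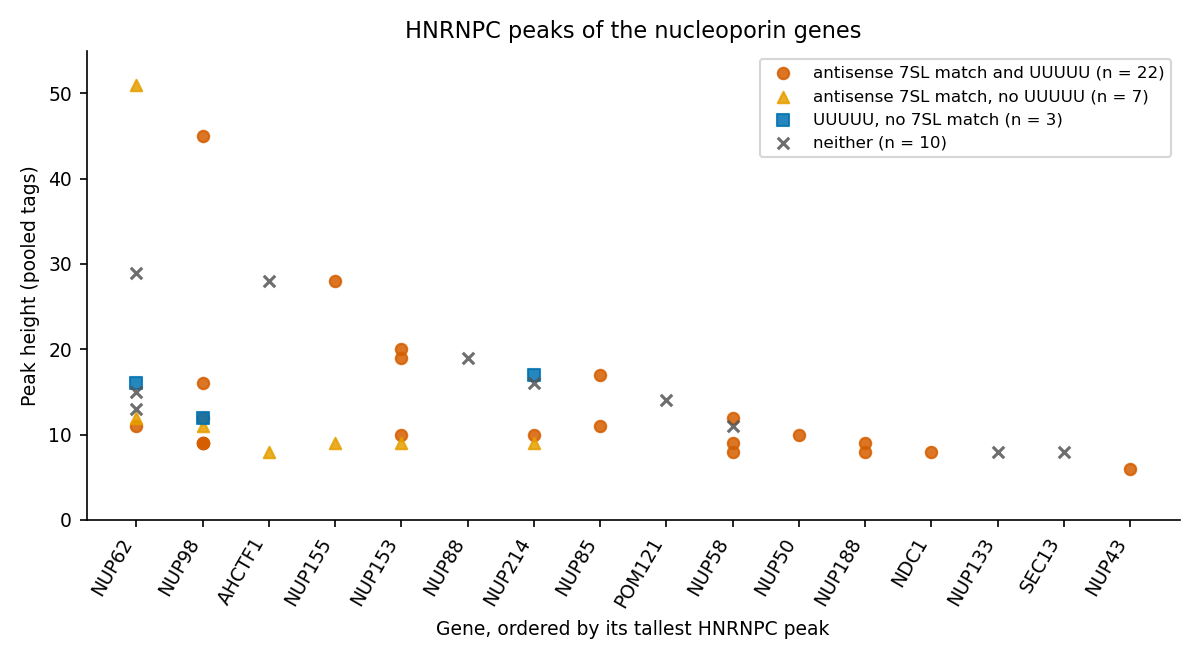
Height of each HNRNPC peak in pooled unique tags for the 16 nucleoporin genes with a peak, coloured by whether the peak and its flanks matched 7SL RNA in antisense and whether a run of 5 U was found. Of the 42 peaks, 22 had both, and the tallest, in NUP62, had 51 tags.

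In NUP98, 5 of the 8 peaks lay in intron 10 of 32, with 16, 12, 9, 9 and 11 tags. A 9-tag peak lay in intron 11, a 12-tag peak in the CDS of exon 12 of 33, and the 45-tag peak in intron 28. There were 7 peaks in this gene with an antisense 7SL match. In NUP62, 6 of the 7 peaks lay in intron 2 of the MANE transcript (16, 13, 29, 12, 11 and 15 tags) and the 51-tag peak in intron 1. The annotation placed the 16-tag and the 51-tag peaks in a 5′ UTR of another transcript. IL4I1 shared 6 of the 7 peaks, so these tags cannot be assigned to either gene. NUP153 had 9, 20 and 19 tags in intron 11 of 21 and 10 tags in intron 5.

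In NUP214, which has 35 introns in its MANE transcript, the peaks had 16, 10, 9 and 17 tags, and the 10-tag peak lay in a non-coding exon. NUP58 had 11, 12, 8 and 9 tags, the last in a non-coding exon. NUP43, a propeller protein of the Y complex, had the only peak in a 3′ UTR. It had 6 tags and a p-value of 0.078, the only one of the 42 above 0.05. No member other than NUP43 had an HNRNPC peak in its 3′ UTR in this list.

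The sequences of the 29-tag intron peak of NUP62 and the 19-tag peak of NUP88 are given with 50 nt upstream, as examples of tall peaks without a run of 5 U. Capitals mark the letters GUGUCA.
NUP62, 29 tags, chr19:49915837-49916019, minus strand: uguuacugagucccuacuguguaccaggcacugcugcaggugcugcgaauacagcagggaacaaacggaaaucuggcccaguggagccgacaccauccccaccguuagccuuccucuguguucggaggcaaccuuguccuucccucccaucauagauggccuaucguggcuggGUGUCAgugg
NUP88, 19 tags, chr17:5381094-5381231, minus strand: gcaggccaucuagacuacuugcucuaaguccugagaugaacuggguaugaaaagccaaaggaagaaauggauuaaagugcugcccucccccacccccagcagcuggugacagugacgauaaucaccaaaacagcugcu
GUGUCA lay at the 3′ side of the NUP62 peak and was not found in the NUP88 sequence.

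UUUUU was found from 50 nt upstream to the 3′ end of 25 of the 42 peaks (59.5%, interval 44.5 to 73.0), beside 39.7% of the whole list. Within the peak alone the shares were 11.9% and 13.3%. An antisense 7SL match was found in 25 of the 36 intron peaks (69.4%, interval 53.1 to 82.0), beside 38.9% of the intron peaks of the whole list, and no sense match was found. Peaks of the same gene are not independent, and the intervals of these shares do not allow for this. NUP98 alone held 7 of the 25 intron peaks with an antisense match and 7 of the 25 peaks with UUUUU. Of all 42 peaks, 22 had UUUUU together with an antisense match, 7 the match alone, 3 UUUUU alone and 10 neither. GUGUCA started in the last 20 nt of 11 peaks (26.2%, interval 15.3 to 41.1), beside 33.0% of the whole list, and 8 of the 11 had no 7SL match. Peaks with an antisense match had a median of 10 tags, and those without had 15. The origin of the GUGUCA letters at the 3′ side of peaks was not tested.

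Longer introns offer more places for a peak. Over the members pooled there were 1.99 HNRNPC intron peaks per 100 kb of intron, beside 0.789 over protein-coding genes with a PABPC4 peak, and 6.65 PABPC4 intron peaks, beside 3.87. The median intron length was 51.1 kb in the members and 33.2 kb in those genes. Taken gene by gene, the median over the members was 0 HNRNPC and 5.94 PABPC4 intron peaks per 100 kb, so the pooled HNRNPC rate was not that of a typical member. Across the 32 members, which share the libraries, the number of peaks followed intron length weakly, with a Spearman correlation of 0.125 for HNRNPC and 0.133 for PABPC4. Across 19138 protein-coding genes it was 0.334 and 0.458. NUP62, with 16.9 kb of intron, had 29.6 HNRNPC intron peaks per 100 kb, most of them shared with IL4I1, while NUP93, NUP205 and TPR, with 109, 83.2 and 51.7 kb, had no HNRNPC peak.

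None of the 42 HNRNPC peaks overlapped a PABPC4 peak of the same gene (upper limit of the interval 8.38%). In the whole list, 86 of the 8982 HNRNPC peaks in genes with a PABPC4 peak did so (0.957%), so overlap was rare there too. The median gap to the nearest PABPC4 peak of the gene was 2538 nt in the members (quartiles 1077 and 9485, range 100 to 31444), beside 3837 nt in the whole list (quartiles 1511 and 9184). The peak within 200 nt was the 16-tag peak of NUP62, 100 nt from a 12-tag PABPC4 peak.

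**Figure D5:**
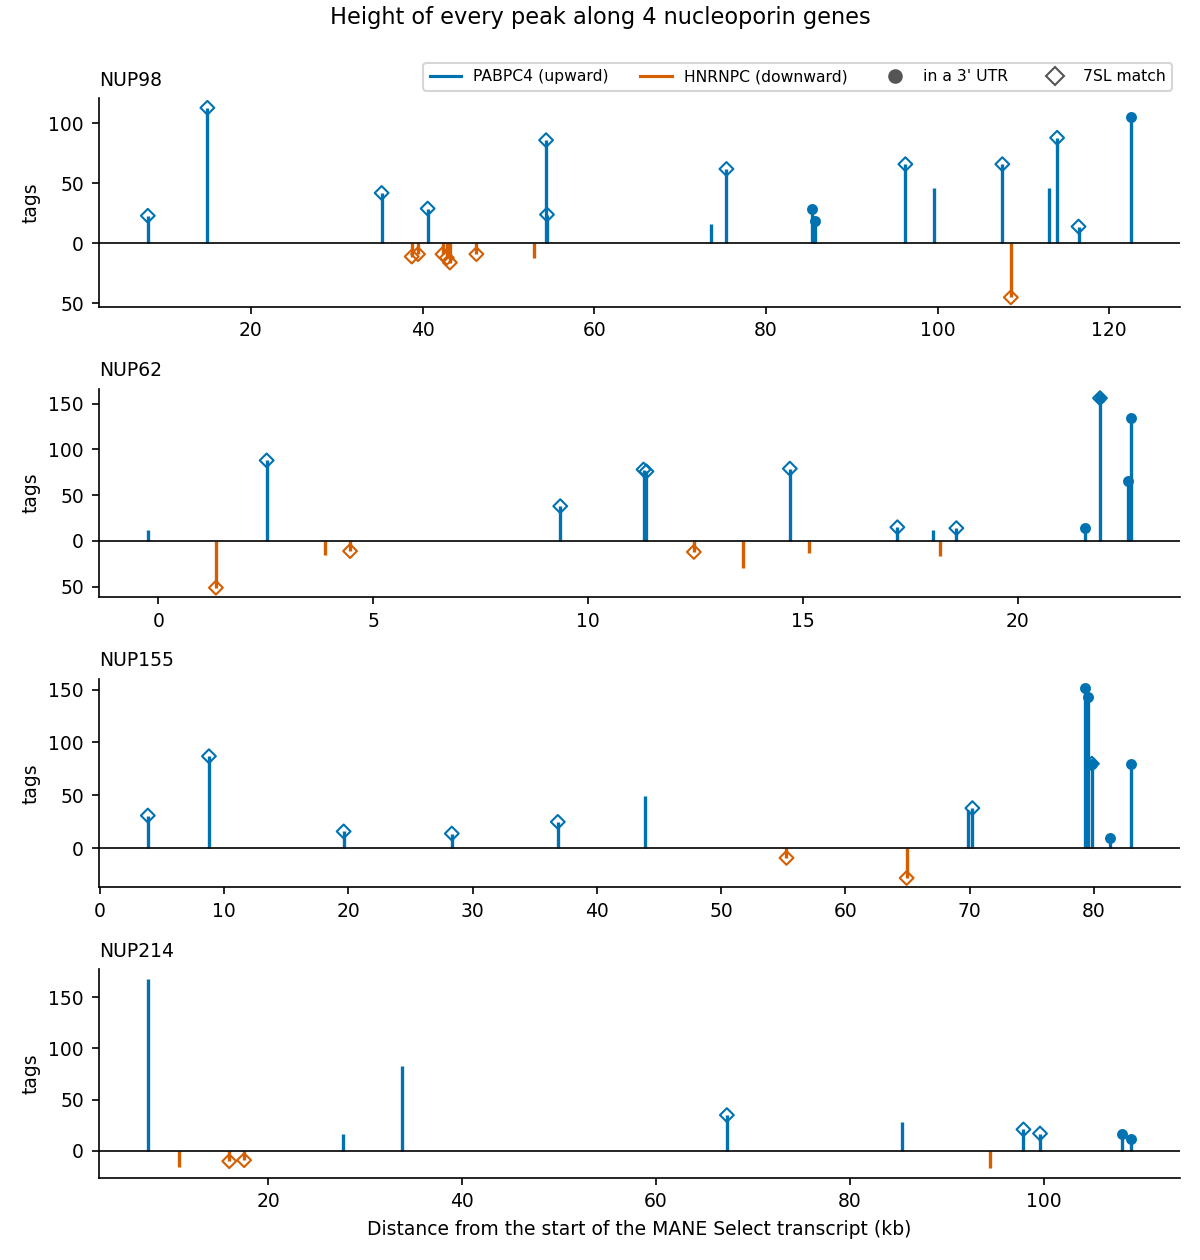
Peaks along NUP98, NUP62, NUP155 and NUP214, with the distance from the start of the MANE transcript in kb on the horizontal axis, PABPC4 heights drawn upward and HNRNPC heights downward in pooled unique tags, with a range of its own in each panel. Dots mark 3′ UTR peaks and diamonds peaks with a 7SL match. The heights of the proteins are not on a common scale. In NUP98 the 45-tag HNRNPC peak lay in intron 28, among the PABPC4 peaks of the introns.

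Other genes of nuclear transport were taken as a list of 37, including importins, exportins and the Ran cycle. The list also held RAE1 and POM121C, the near copy of POM121, which the symbol rule for members did not take. HNRNPC peaks were found in 17 (45.9%) and PABPC4 peaks in 35 (94.6%), with a PABPC4 3′ UTR peak in 34 (91.9%) and an HNRNPC 3′ UTR peak in 2. These shares lay within the intervals of the nucleoporins. The tallest PABPC4 3′ UTR peak of a gene had a median of 137 tags (range 30 to 427) in this list and 76 tags (range 15 to 309) in the nucleoporins. XPO1, the main exportin for proteins, had 427 tags, and its tallest HNRNPC peak had 75. RCC1, the exchange factor of Ran, had 9 HNRNPC peaks, and TNPO2 had 4 of its 6 HNRNPC peaks in the 3′ UTR. Of their 51 HNRNPC peaks, 28 were in introns (54.9%, interval 41.4 to 67.7), beside 85.7% for the nucleoporins (interval 72.2 to 93.3). This difference was not tested, and these intervals do not allow for the dependence between peaks of the same gene.

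As a check of the cell line, the mesenchymal genes VIM and CD44 had PABPC4 3′ UTR peaks of up to 10197 and 331 tags, and the hormone receptor genes ESR1 and PGR had none. ERBB2, CDH1 and EPCAM had peaks of 70, 56 and 88 tags.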

How the data were processed

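HNRNPC and PABPC4 were each measured in 2 samples of MDA-MB-231 cells, and the authors pooled the samples of a protein before calling peaks. Per the study's methods, HNRNPC reads were collapsed by molecular identifier, trimmed with cutadapt, aligned to hg38 with BWA 0.7.17 and called with the CLIP Tool Kit's valley-seeking algorithm. Processing of PABPC4 reads was not described separately. The labels and the methods name irCLIP for HNRNPC, whereas the name of its list gives HITS-CLIP. The signal in the deposited lists is peak height, in pooled unique tags at the summit without scaling. The highest p-value that the authors kept was 0.1 for HNRNPC and 0.05 for PABPC4. Library totals were not analysed here, and summed heights are not a depth.

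Each position was counted once. Gene IDs matched symbols for 4090 of 4098 (HNRNPC) and 13155 of 13189 (PABPC4) IDs. Peaks were placed by their centre on their own strand, in GRCh38 with GENCODE 44, in the order 3′ UTR, CDS, 5′ UTR, non-coding exon, intron. An end peak was a 3′ UTR peak with its 3′ boundary within 50 nt of an annotated transcript end. Poly(A) signals (AAUAAA or AUUAAA) had to start in the 40 nt before the 3′ boundary, also where the peak was narrower. Matches to RN7SL1, with 100 nt on each side, were made with BLAST+ 2.17.0 at an E-value of at most 1e-05. Motifs were searched on the strand of the gene. Python 3.11.15, pandas 2.3.3, scipy 1.17.1 and pysam 0.24.0 were used, and the scripts were tested on simulated data.

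Members, transport genes and rules were chosen with earlier results of these data known. Named with values were the 6 genes with the tallest HNRNPC peak, those with an HNRNPC peak in an exon, the 6 whose PABPC4 peaks in a 3′ UTR were tallest, those with several annotated ends, the 5 with the tallest PABPC4 peak elsewhere and those without a peak. Other members are given by their heights. No test was made, since no spread between samples exists. Some sequences of HNRNPC peaks are not reported here.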

Additional observations from a re-analysis of the deposited data

How the results depend on the processing

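There were 16 results and 89 alternative values. Of these, 78 were within 1.5 times the reported count or inside the 95% interval of the reported share, and 11 were not. Keeping only peaks at or above the median height of their list left 10 of 16 genes with an HNRNPC peak, 24 of 42 HNRNPC peaks and 117 of 214 PABPC4 peaks, which follows from the construction of that limit. Genes with more than 1 end peak fell from 8 to 5 with 25 nt from an annotated end and to 5 with a least share of 20%. With 12 variants of the poly(A) signal in place of 2, the share of 3′ UTR peaks with a signal was 67.2% instead of 50%. A-rich stretches were found beside 50.8% of PABPC4 intron peaks within 20 nt and 80.0% within 100 nt, instead of 63.3%, and beside 52.7% and 86.7% of the intron peaks of the whole list. Without flanks, the share with a sense 7SL match was 35.0% instead of 68.3%, beside 27.2% of the whole list. UUUUU lay in 11.9% of HNRNPC peaks alone, and 4 U in a row in 78.6% with the upstream window, beside 13.3% and 60.9% of the whole list. At a p-value of at most 0.001, 13 genes had an HNRNPC peak and 31 a PABPC4 peak. Leaving out the peaks shared with IL4I1 kept 36 HNRNPC and 203 PABPC4 peaks, and leaving out the NUP188 peaks in PHYHD1 kept 211 PABPC4 peaks; both were chosen after seeing the data.

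No paired analysis was possible because the deposited lists merge both samples of a protein, and for the same reason no sample was left out in turn. Library depth was not known here, so a gene without a peak is below what these lists detect, which is not the same as absent.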

Other observations

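On the strand opposite to NUP88, PABPC4 peaks of 53 and 21 tags lay in the 3′ UTR of RABEP1, both with AUUAAA, so the 3′ ends of these genes face each other. Peaks of 5 nt or less were found 3 times in the nucleoporins, in TPR (71 tags), NUP62 (65 tags) and NUP58 (24 tags). Apart from 3′ UTRs, 7 PABPC4 peaks lay within 50 nt of an annotated end, in GLE1, NUP107, NUP160, NUP214 (2 peaks), NUP85 and RANBP2.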
